A study of Mus musculus with 6 samples.

Results

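The 8 chemokine receptor genes Ccr1, Ccr2, Ccr7, Ccrl2, Cxcr3, Cxcr4, Cxcr5 and Cx3cr1 were taken by symbol from the 57180 mouse genes of the deposited table, and all 8 had enough counts to be tested. The RNA came from male C57BL/6J mice, 6 to 8 weeks old, in which liver fibrosis had been induced by carbon tetrachloride (CCl4) in olive oil, injected 2 times per week for 4 weeks at 2.5 ml/kg of a 20% solution. Livers were taken 48 h after the last injection. The study gated natural killer (NK) cells as CD3- NK1.1+ in flow cytometry, but does not state the gate of the sort for sequencing. CD36+ NK and CD36- NK fractions were sorted from these livers, with 3 libraries each. Both fractions therefore came from fibrotic livers, and no cells of untreated mice are among these libraries. The question was how the transcripts of NK cells that carry the fatty acid receptor CD36 differ from those of NK cells that do not.

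The libraries held 10292480 to 13787189 fragments counted in genes. The library names of the samples titled CD36+ NK carry hyphens in place of the plus sign, and the titles were followed. Cd36 was at 109.7, 263 and 238 CPM (counts scaled for library size and composition) in the libraries titled CD36+ NK and at 14.3, 31.7 and 17.1 CPM in those titled CD36- NK, so the transcript of the sorted marker was higher in every library titled CD36+. Klrb1c, which encodes the NK1.1 antigen on which both fractions were gated, was at 83.1, 105.7 and 77.9 CPM in CD36+ NK and at 495, 448 and 524 CPM in CD36- NK, 5.50-fold lower in CD36+ NK (edgeR adjusted p = 0.000428). A list of 12 NK cell genes, of which Gzma and Il2rb were the most counted, was expressed in both fractions but was lower in CD36+ NK, with 12 of 12 genes called lower and a summed level of 1212 to 1488 CPM against 6296 to 8225 CPM. Genes of B cells were abundant in both fractions, at a summed 12817 to 14450 CPM in CD36+ NK and 7836 to 10136 CPM in CD36- NK. CD36+ NK replicate 1 stood apart in the summed level of 8 T cell genes, at 338 CPM against 27.4 to 47.7 CPM in the other libraries. All 8 had positive log2 fold changes, with a median of 2.58, and Cd4 and Cd8a, the most counted, were the 2 called higher, with every CD36+ NK library above every CD36- NK library. The T cell receptor complex genes Cd3d, Cd3e, Cd3g and Trac were positive through CD36+ NK replicate 1 alone, since in replicates 2 and 3 each was below every CD36- NK library, as Cd3d was at 35.3, 1.32 and 1.33 CPM against 5.53, 7.52 and 7.32 CPM.

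Chemokine receptors are membrane proteins that couple to inhibitory G proteins and steer leukocytes along gradients of small secreted chemokines. CCR1 and CCR2 draw monocytes and other inflammatory cells into injured tissue, CXCR3 serves NK cells and T cells that follow interferon-induced chemokines, and CX3CR1 marks patrolling monocytes, macrophages and mature NK cells. CCR7 and CXCR5 guide B cells, T cells and dendritic cells within lymphoid tissue, CXCR4 retains cells where CXCL12 is made, and CCRL2 is an atypical receptor that binds chemerin without steering the cell.

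The stretch of coding sequence at the inner end of the third membrane helix shows how the 8 genes are related and where Ccrl2 departs from the others. The lines give 33 bases of each coding sequence, read from GENCODE M21 transcripts (GRCm38), with the 3 codons in capitals that in Ccr1 encode aspartate, arginine and tyrosine, the residues through which these receptors engage G proteins.
Ccr1: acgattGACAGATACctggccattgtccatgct
Ccr2: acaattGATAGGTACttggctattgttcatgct
Ccr7: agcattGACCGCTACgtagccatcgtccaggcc
Ccrl2: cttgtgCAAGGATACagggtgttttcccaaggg
Cxcr3: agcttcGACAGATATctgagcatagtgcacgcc
Cxcr4: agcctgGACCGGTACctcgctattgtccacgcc
Cxcr5: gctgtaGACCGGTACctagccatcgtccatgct
Cx3cr1: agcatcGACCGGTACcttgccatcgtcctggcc

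In Ccrl2 only 1 of these 3 codons encoded the same residue as in Ccr1, and 1 of the 7 codons from the first capital onward did so. In the other members all 3 encoded the same residues as in Ccr1, and 6 or 7 of the 7 did. Over the whole aligned coding sequences, Ccr1 and Ccr2 were the closest pair of members, with 55.1% of aligned residues identical, and Ccrl2 and Cxcr4 were the most distant, at 23.9%.

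By the deposited FPKM values, the order of the receptors was led by Cxcr4 and Ccr7 in both fractions. FPKM are fragments scaled to a length for each gene and to library size, but the lengths used are not given. For Ccr2 and Ccrl2 the ratio of CPM to FPKM gives a length above that of the locus, so the order between genes is uncertain. By mean CPM, which is not per length, Ccr2 was the highest member in CD36- NK, at 307 CPM against 185 CPM for Cxcr4. In CD36+ NK, Cxcr4 was the highest by mean CPM, at 261 CPM against 120 CPM for Ccr2. Cxcr4 was at 94.9 ± 2.498 FPKM (SD, 3 libraries) in CD36+ NK, against 68.97 ± 20.4 in CD36- NK, and Ccr7 at 87.4 ± 22.6 and 62.98 ± 25.1, and the libraries of these neighbours overlapped in both fractions. Cx3cr1 and Ccr1 had the lowest mean FPKM of the members, at 6.21 ± 2.58 and 8.06 ± 5.77 FPKM in CD36+ NK and at 4.50 ± 0.883 and 4.74 ± 2.24 FPKM in CD36- NK, and they also overlapped. In CD36+ NK, Ccr1 overlapped as well with Ccr2, the next above it, so the order of the lowest members is not settled there.

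**Figure D1:**
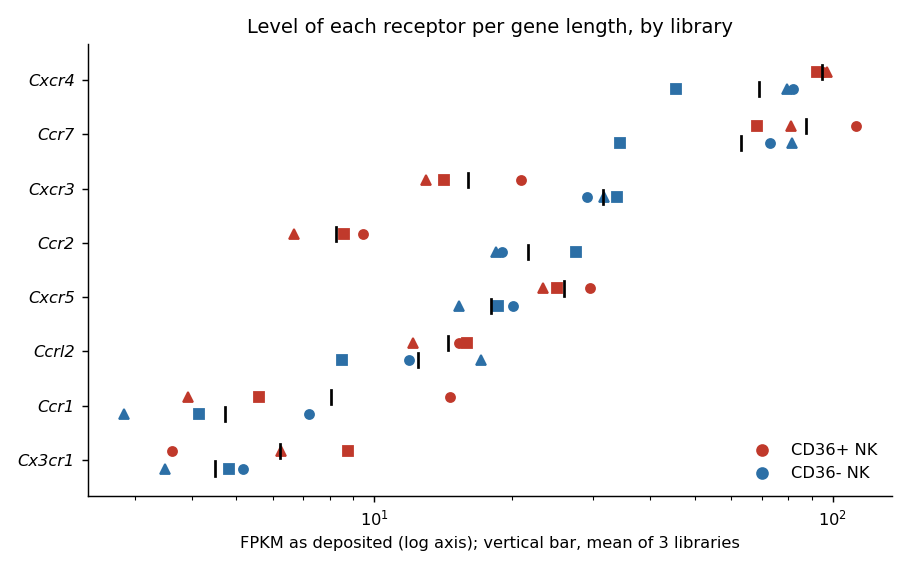
Deposited FPKM of the 8 receptors (log axis), with 1 point per library, circles, squares and triangles for replicates 1, 2 and 3, and a vertical bar at the mean of each fraction. Cxcr4 and Ccr7 lie highest in both fractions, and Ccr2 and Cxcr3 lie further right in CD36- NK than in CD36+ NK.

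The middle of the order differed between the fractions. In CD36- NK, Cxcr3 was the third at 31.5 ± 2.36 FPKM and Ccr2 the fourth at 21.6 ± 5.09 FPKM, and their libraries did not overlap. Ccr2 overlapped there with Cxcr5, the next below it at 18.0 ± 2.41 FPKM. In CD36+ NK, Cxcr5 was the third at 25.97 ± 3.17 FPKM, Cxcr3 followed at 16.01 ± 4.29 FPKM and Ccr2 came only as the sixth, at 8.24 ± 1.43 FPKM, after Ccrl2 at 14.5 ± 2.02 FPKM. Cxcr5 did not overlap with Cxcr3 in CD36+ NK, while Cxcr3 overlapped with Ccrl2 there.

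Between the fractions, Ccr2 was lower in CD36+ NK, Cxcr3 was lower by slightly less than the fold threshold, and the other 6 receptors had positive log2 fold changes (CD36+ NK over CD36- NK) that did not pass it. A gene was called when its adjusted p (edgeR's quasi-likelihood test, Benjamini-Hochberg over 14761 genes) was below 0.05 and its fold change above 2, the thresholds of the study. By this rule 1 of the 8 receptors was called, Ccr2, against 5.96% of all tested genes, of which 2.98% were called lower and 2.98% higher. That even split of 440 and 440 genes depended on the libraries, with 94 higher and 323 lower without CD36- NK replicate 1. With the adjusted p alone, 3 of the 8 passed, Ccr2, Cxcr3 and Cxcr5, against 10.5% of all tested genes. The median log2 fold change was 0.50 over the 8 receptors and 0.01 over all tested genes.

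**Figure D2:**
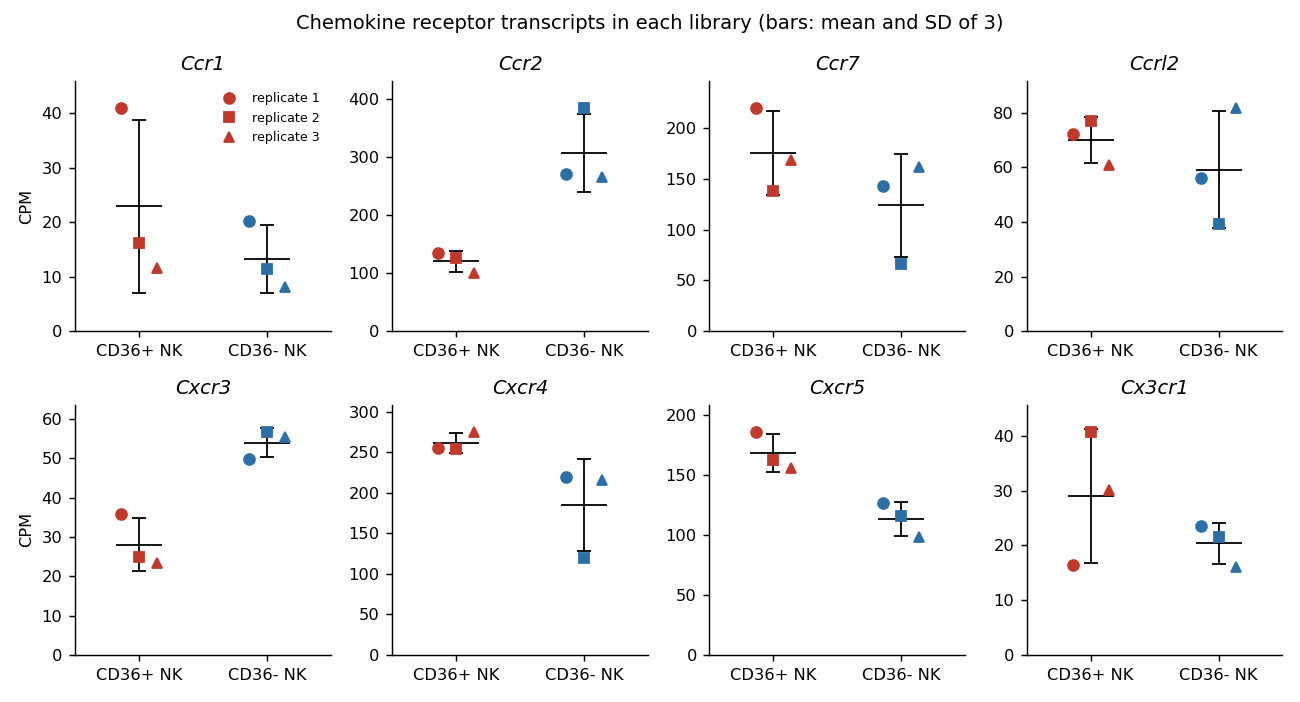
CPM of the 8 receptors in each library (vertical axes from 0), with red symbols for CD36+ NK, blue symbols for CD36- NK, and the mean and SD of 3 libraries in black. In Ccr2 and Cxcr3 all CD36+ NK libraries lie below all CD36- NK libraries, in Cxcr4 and Cxcr5 above them, and in the other 4 receptors the fractions overlap.

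Ccr2 (ENSMUSG00000049103, plus strand of chromosome 9 from 123901987 to 123913594 as the table gives it, with no genome build named) encodes the receptor by which monocytes and other cells follow CCL2. It was at 135, 126 and 100.4 CPM in CD36+ NK replicates 1 to 3 and at 271, 385 and 266 CPM in CD36- NK replicates 1 to 3. The lowest CD36- NK library was thus well above the highest CD36+ NK library. This was a log2 fold change of -1.35 (standard error 0.182, 95% interval -1.78 to -0.93, edgeR adjusted p = 0.00649), a 2.56-fold lower level. In these bulk samples, fewer cells that express a gene and less of its RNA per cell cannot be told apart.

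Cxcr3 (ENSMUSG00000050232, minus strand of chromosome X from 100775141 to 100777875) encodes the receptor for the interferon-induced chemokines CXCL9 and CXCL10. It was at 35.8, 24.9 and 23.4 CPM in CD36+ NK and at 49.8, 56.8 and 55.3 CPM in CD36- NK. The fractions did not overlap, and the highest CD36+ NK library was replicate 1, the one with more T cell transcripts. Its log2 fold change was -0.95 (standard error 0.173, 95% interval -1.35 to -0.54, edgeR adjusted p = 0.0188), a 1.93-fold lower level that missed the fold threshold. Without CD36+ NK replicate 1 it was -1.17 (edgeR adjusted p = 0.00433), past both thresholds, while the adjusted p was above 0.05 in 4 of the 6 fits that left out 1 library, at 0.0776 and 0.0667 without CD36+ NK replicates 2 and 3 and at 0.0594 and 0.0713 without CD36- NK replicates 1 and 3.

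Cxcr5 (ENSMUSG00000047880, minus strand of chromosome 9 from 44423084 to 44473174), which encodes the receptor of follicular B cells for CXCL13, was at 186, 162 and 156 CPM in CD36+ NK and at 127, 116 and 98.4 CPM in CD36- NK. Each CD36+ NK library was above each CD36- NK library, although the difference was modest. Its fitted log2 change was 0.57 (standard error 0.123, 95% interval 0.28 to 0.86, edgeR adjusted p = 0.0324), and the adjusted p lay between 0.0632 and 0.0928 when any 1 library was left out. The gene overlaps Bcl9l on the opposite strand, with 8412 counts over the 6 libraries and a log2 fold change of -0.41 (edgeR adjusted p = 0.163), and whether the counting used strand is not stated, so the reads of the pair could be mixed.

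Cxcr4 (ENSMUSG00000045382, minus strand of chromosome 1 from 128515936 to 128520030), the receptor for CXCL12, was at 255, 253 and 275 CPM in CD36+ NK and at 219.7, 119 and 216 CPM in CD36- NK. The fractions did not overlap, but CD36- NK replicate 2 was far below the other 2 of its group. The log2 fold change of 0.50 (standard error 0.224, 95% interval -0.03 to 1.02) did not pass the test (edgeR adjusted p = 0.214), and it was 0.26 without that library and 0.63 without CD36- NK replicate 1. In all, the fractions did not overlap in 4 of the 8 receptors, against 32.8% of all tested genes. Cxcr4 and Cxcr5 were the 2 in which CD36+ NK was higher, as in 17.0% of all tested genes, and Ccr2 and Cxcr3 the 2 in which it was lower, as in 15.7%.

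Ccr7 (ENSMUSG00000037944, minus strand of chromosome 11 from 99035022 to 99045903), which brings mature dendritic cells, naive T cells and B cells toward CCL19 and CCL21, was at 219.7, 137 and 168 CPM in CD36+ NK and at 143, 66.1 and 162 CPM in CD36- NK. The fractions overlapped, and CD36- NK replicate 2 was again the lowest library. The log2 fold change of 0.50 (95% interval -0.28 to 1.28, edgeR adjusted p = 0.396) was 0.20 without CD36- NK replicate 2 and 0.74 without CD36- NK replicate 3.

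Ccrl2 (ENSMUSG00000043953, minus strand of chromosome 9 from 110883554 to 110886587), the atypical chemerin receptor, was at 72.4, 77.2 and 60.8 CPM in CD36+ NK and at 56.2, 39.3 and 81.8 CPM in CD36- NK. Both the highest and the lowest library belonged to CD36- NK. The log2 fold change was 0.25 (95% interval -0.34 to 0.84, edgeR adjusted p = 0.599), 0.02 without CD36- NK replicate 2 and 0.55 without CD36- NK replicate 3.

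Ccr1 (ENSMUSG00000025804, minus strand of chromosome 9 from 123762161 to 123768729), the receptor of neutrophils and monocytes for CCL3 and related chemokines, was at 41.03, 16.1 and 11.6 CPM in CD36+ NK and at 20.2, 11.4 and 8.11 CPM in CD36- NK. Replicate 1 was the highest library of both fractions, and the fractions overlapped. The log2 fold change of 0.78 (95% interval -0.45 to 2.01, edgeR adjusted p = 0.404) did not pass the test. It was 0.05 without CD36+ NK replicate 1, 1.22 without CD36- NK replicate 1 and 0.50 with both left out, and 0.69 under a replicate block (edgeR adjusted p = 0.0706). Transcripts of neutrophil genes such as S100a9 and S100a8 were also highest in replicate 1 of both fractions, at a summed 2939, 536 and 597 CPM in CD36+ NK replicates 1 to 3 and 2225, 1264 and 895 CPM in CD36- NK replicates 1 to 3. The part of these transcripts in the level of Ccr1 was not tested.

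Cx3cr1 (ENSMUSG00000052336, minus strand of chromosome 9 from 119877749 to 119898945), the receptor for fractalkine, was at 16.4, 40.8 and 30.0 CPM in CD36+ NK and at 23.4, 21.5 and 16.1 CPM in CD36- NK. Here CD36+ NK replicate 1 was the lowest of its group and lay within the range of CD36- NK. The log2 fold change was 0.51 (95% interval -0.24 to 1.27, edgeR adjusted p = 0.367), 0.78 without CD36+ NK replicate 1 and 0.19 without CD36+ NK replicate 2. The gene overlaps Gm33858 on the opposite strand, which had 304 counts over the 6 libraries and a log2 fold change of 1.74 (edgeR adjusted p = 0.0396).

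**Figure D3:**
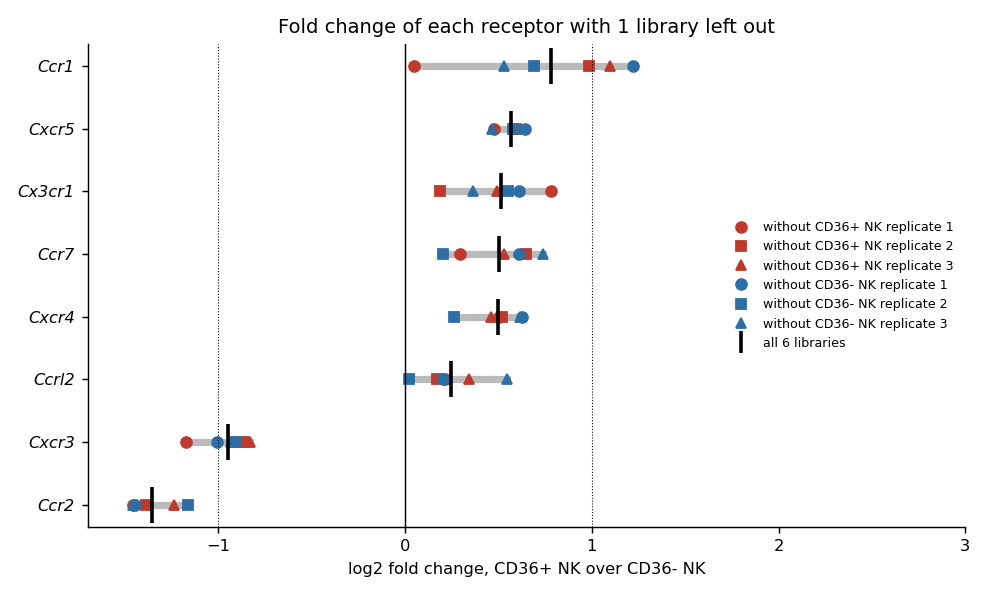
Log2 fold change of each receptor (CD36+ NK over CD36- NK) with all 6 libraries (black bars) and with 1 library left out (red symbols, a CD36+ NK library; blue symbols, a CD36- NK library), with dotted lines at a fold change of 2. No receptor changes sign in these fits, Ccr2 stays between -1.46 and -1.16, and Ccr1 spans 0.05 to 1.22.

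Markers of other cell types moved with the fractions beside these receptors, and their part in the receptor differences was not tested. The T cell genes given above stand beside Cxcr3 and Ccr7, and Cd3d, Cd3e, Cd3g and Trac, like Cxcr3, were lower in CD36+ NK replicates 2 and 3 than in every CD36- NK library. Beside Cxcr5 and Ccr7, all 10 genes of the B cell list had positive log2 fold changes, with a median of 0.51 and 1 called higher, and its most counted genes were Ighm and Cd79a. The list of mature dendritic cells, whose most counted genes were Tmem123 and Marcksl1, had 3 of 8 genes called higher and summed to 725 to 764 CPM in CD36+ NK and 542 to 610 CPM in CD36- NK. Beside Cx3cr1, the list of non-classical monocytes had 5 of 9 genes called higher, with a median log2 fold change of 2.04, and that of macrophages and Kupffer cells had 3 of 9 tested genes called higher, with a median of 2.90 and a summed 2320 to 5806 CPM against 369 to 1414 CPM. The most counted genes of the non-classical monocyte list, Itgal and Nr4a1, were not called, with log2 fold changes of -0.17 and 0.43. The 5 called were Ace, Treml4, Eno3, Cd300e and Adgre4, while Spn was lower in every CD36+ NK library (log2 fold change -0.42, not called). The most counted genes of the macrophage list were Csf1r, which was called, and C1qb, which was not. Beside Ccr2, the list of classical monocytes had a median of -0.70, with 1 of 9 genes called higher and none lower, and its summed CPM, led by Fn1, overlapped between the fractions.

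Ccr2 and Cxcr3 differed by less than the NK cell genes did. The 12 NK cell genes had log2 fold changes from -2.58 to -2.20, below the -1.35 of Ccr2 and the -0.95 of Cxcr3. The level of each receptor relative to the mean log2 CPM of these genes was taken within each library, and only the difference between the fractions is read, since these levels are not per length. Relative to the NK cell genes, Ccr2 was at 0.49, 0.39 and 0.36 in CD36+ NK and at -0.77, -0.08 and -0.99 in CD36- NK on the log2 scale, 1.03 higher in CD36+ NK. Cxcr3 was 1.40 higher by the same measure, and the other 6 receptors were 2.67 (Ccrl2) to 3.04 (Ccr1) higher. The fractions did not overlap in any of the 8 receptors, but neither did they in 97.3% of all tested genes on this measure, nearly all higher in CD36+ NK, so the separation is not a result about the receptors. Each receptor had p = 0.1 in the exact two-sided permutation test, the lowest value possible with 3 libraries in each fraction. The mean of the NK cell genes itself differed by -2.37 between CD36+ NK and CD36- NK, so a gene with equal CPM in both fractions would also stand higher on this measure.

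**Figure D4:**
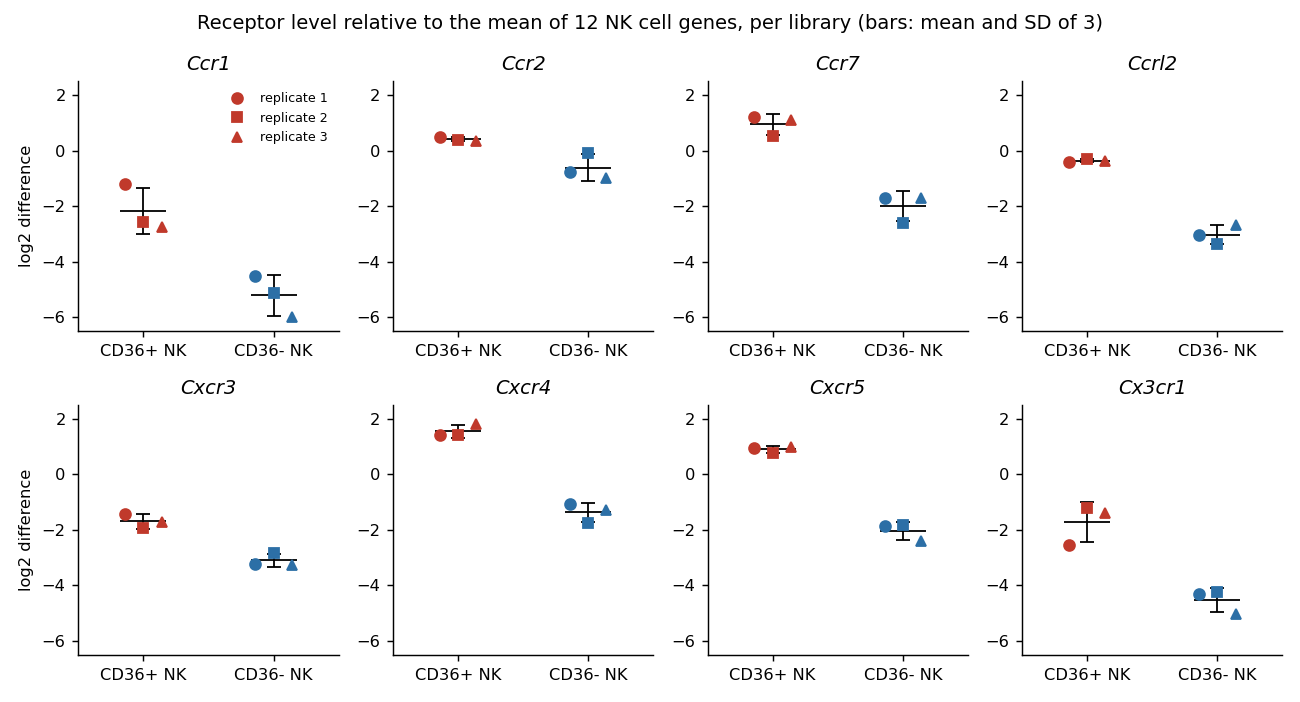
Level of each receptor relative to the mean of 12 NK cell genes (log2 difference on 1 shared vertical scale) in each library, with red symbols for CD36+ NK, blue symbols for CD36- NK, and the mean and SD of 3 libraries in black. The fractions do not overlap in any receptor, as in 97.3% of all tested genes, and the gap is smallest among the 8 in Ccr2, at 1.03.

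Of the 17 other chemokine and chemerin receptors considered here, which are not the whole family, 11 had enough counts to be tested and 2 were called higher. The count was 4 without CD36+ NK replicate 1, 5 with DESeq2 or edgeR's exact test and 1 with replicates 2 and 3 alone. The median log2 fold change of these 11 was 1.27. Xcr1, the receptor of cross-presenting dendritic cells for XCL1, rose from 1.69, 2.48 and 0.977 CPM to 9.88, 7.28 and 11.4 CPM, with a log2 fold change of 2.46 (edgeR adjusted p = 0.00763). Ackr2, a scavenging receptor that removes inflammatory CC chemokines, rose with one of 1.87 (edgeR adjusted p = 0.00637).

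Several of the other receptors missed 1 of the thresholds. Ccr3, the eotaxin receptor of eosinophils, had the highest log2 fold change among these 11 receptors, 2.84 (95% interval 0.93 to 4.75, edgeR adjusted p = 0.0697), and its libraries ranged from 74.9 to 217 CPM in CD36+ NK and from 5.76 to 43.1 CPM in CD36- NK. No list of eosinophil genes was examined, so the cells that carried it are not known. Cmklr1, the signalling receptor for chemerin, had a log2 fold change of -0.83 (edgeR adjusted p = 0.0115), and Ccr6, a receptor of B cells and dendritic cells, one of 0.82 (edgeR adjusted p = 0.0109). Both were past the adjusted p but below the fold threshold. Cxcr6, a receptor of liver-resident NK cells and T cells, was at 5.23 ± 4.18 CPM in CD36+ NK and 6.41 ± 0.551 CPM in CD36- NK, with a log2 fold change of -0.30 (95% interval -1.64 to 1.04).

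**Figure D5:**
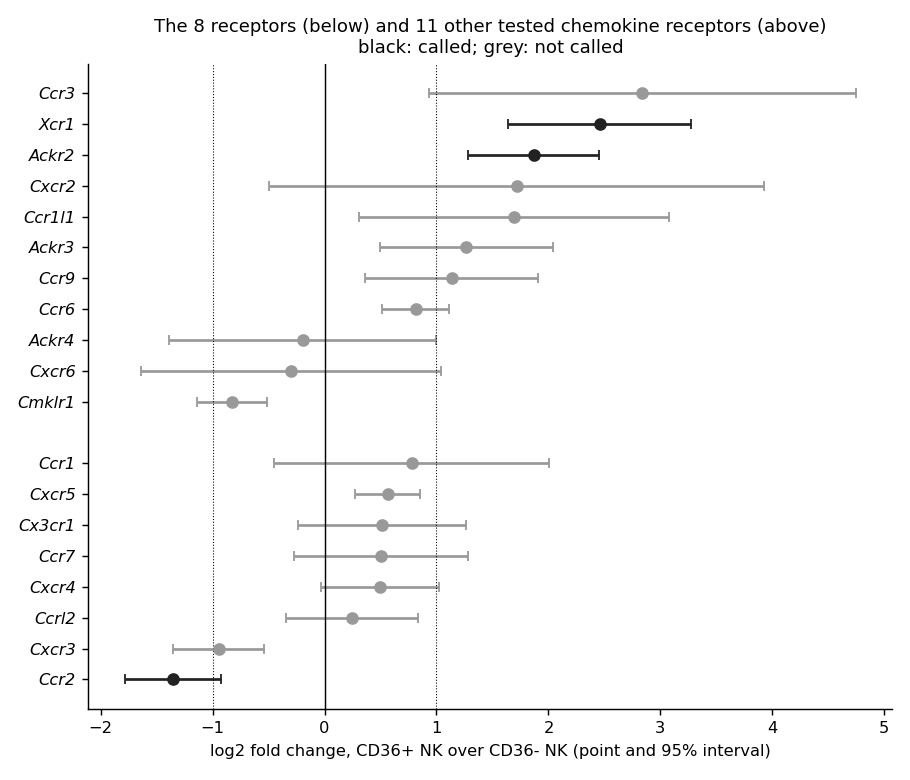
Log2 fold changes (CD36+ NK over CD36- NK) with 95% intervals for the 8 receptors and, above them, the 11 other tested receptors considered here, with called genes in black, genes not called in grey and dotted lines at a fold change of 2. Ccr2 is the called gene on the left of 0, and Xcr1 and Ackr2 are those on the right.

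Among 18 genes for chemokines that these receptors bind or that share them, 9 were tested, 3 were called lower and none higher, and their median log2 fold change was -0.12. With the replicate number as a block, 3 were called lower and 1 higher, and without CD36+ NK replicate 2, or with replicates 2 and 3 alone, only 1 was called. The 3 were Ccl3, Ccl4 and Ccl5, of which Ccl3 and Ccl5 encode ligands of CCR1. Ccl5 was at 293, 232 and 219.7 CPM in CD36+ NK and at 1395, 1073 and 1515 CPM in CD36- NK, with a fitted log2 change of -2.42 (edgeR adjusted p = 0.000658), and those of Ccl4 and Ccl3 were -1.89 and -1.42 (edgeR adjusted p = 0.00969 and 0.0353). Cxcl9 and Cxcl10, the ligands of CXCR3, had log2 fold changes of 1.05 and -1.04 that did not pass the test (edgeR adjusted p = 0.144 and 0.321). The ligands of CCR7, CXCR4, CXCR5, CX3CR1 and CCRL2 were at the edge of detection, with 16 counts over the 6 libraries for Cxcl13, 15 for Cx3cl1, 12 for Cxcl12, 3 for Rarres2 (chemerin) and 2 for Ccl19. Ccl21a and Ccl8 had no count in any library, which allows up to 3 counts per library as far as counting error goes.

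Of 36 genes that carry the signal of these receptors, 36 were tested, 1 was called higher and none lower, with a median log2 fold change of 0.02. The one called was Grk3, a kinase that phosphorylates receptors after activation, at 218, 419 and 454 CPM in CD36+ NK and 83.9, 177 and 84.6 CPM in CD36- NK (log2 fold change 1.66, edgeR adjusted p = 0.0378). No gene of this list was called without CD36+ NK replicate 2 or 3 or CD36- NK replicate 1 or 3. Pik3r5 and Prex1, which link G protein subunits to phosphoinositide and Rac signalling, had log2 fold changes of -0.86 and -0.85 with edgeR adjusted p = 0.00615 and 0.00626, below the fold threshold.

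Across the 6 libraries, the genes whose log2 CPM ran most like that of Ccr2 were Tha1 (Pearson r = 0.992), Clint1 (r = 0.990) and Itga1 (r = 0.987), which encodes CD49a, among 10008 genes of at least 10 CPM. The 6 points fall into 2 fractions that differ in Ccr2, and 443 genes had an r above 0.9, so these values describe a shared pattern only. Among the receptors, the level of Cxcr3 ran closest to that of Ccr2, with r = 0.949 over the same 6 libraries, and that of Cxcr4 closest to Ccr7, with r = 0.910.

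Since Ccr2 and Cxcr3 were the receptors that were lower together, the 250 bases before their transcription starts are shown, from RefSeq on GRCm38.p6, read 5′ to 3′ on the strand of the gene. Entries were found for 6 of the 8 receptors, and not for Ccr7 and Cxcr5. Capitals mark a RUNX motif (TGTGGT) on either strand, and a T-box motif (TCACACC) was searched in the same way, with no overlap between the motifs in these stretches. In the coordinates of that build, which are not those of the table, the first stretch lies at chr9:124101933-124102182 on the plus strand and the second at chrX:101734148-101734397 on the minus strand.
Ccr2: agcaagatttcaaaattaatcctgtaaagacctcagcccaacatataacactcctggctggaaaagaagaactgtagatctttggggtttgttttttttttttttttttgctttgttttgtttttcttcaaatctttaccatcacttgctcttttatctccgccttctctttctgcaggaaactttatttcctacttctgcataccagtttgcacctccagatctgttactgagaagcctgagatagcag
Cxcr3: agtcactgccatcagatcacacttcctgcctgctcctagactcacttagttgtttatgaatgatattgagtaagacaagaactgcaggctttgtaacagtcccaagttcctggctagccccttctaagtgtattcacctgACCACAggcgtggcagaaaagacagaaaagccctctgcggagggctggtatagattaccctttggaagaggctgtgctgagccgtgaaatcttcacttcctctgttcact

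The Cxcr3 stretch held 1 RUNX motif, and the Ccr2 stretch held neither motif. The RUNX motif also stood in the stretches of Ccr1 and Cx3cr1, 1 match each, and the T-box motif at 1 position upstream of Ccrl2, which 2 overlapping entries of that gene share. Of all 32851 stretches of this length, 14% held the RUNX motif and 3.33% the T-box motif. These matches describe letters in the window and not sites of binding.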

How the data were processed

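RNA-seq libraries of 3 CD36+ NK and 3 CD36- NK samples were analysed. Reads were filtered with Seqtk and mapped with HISAT2 2.0.4, and StringTie 1.3.3b gave the raw counts and FPKM values per gene that the authors deposited. The table names no genome build, and the submitters' processing notes name the rat build mRatBN7.2 although the identifiers are mouse. The broken lines of 2 genes were rejoined. Columns were matched to samples by library name. The names of replicate 1 of both fractions begin with a number and are in lower case, unlike the others, and what this form stands for is not stated. For 2 CD36- NK libraries the library name resembles another title of the group, so their replicate numbers are uncertain.

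Counts were filtered by edgeR's filterByExpr (minimum count 10, 14761 genes kept), scaled by TMM and tested with edgeR 4.0.16 (quasi-likelihood test, R 4.3.3) with group as the only term. Each standard error was derived as |log2 fold change| divided by the root of F. The script was tested on simulated data. Log2 CPM used a prior count of 2, and FPKM values were only described. Within each group, libraries were further apart than sampling noise gives (chi-square per degree of freedom 14.7 to 29.0). The labels do not say whether samples came from separate animals, so p-values measure the spread between these samples. The precision is limited by 3 libraries per group.

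The members and gene lists were chosen with earlier results of these data known. Named genes were the receptors, the called genes of the other pathway lists, the 3 genes most correlated with each called receptor and the 2 most counted genes of marker lists. Genes that just missed a threshold, ligands and lists named beside a receptor, and Cxcr6 and the CD3 genes, were chosen after their values were seen. Other settings tried were DESeq2 1.42.0 and edgeR's exact test, changed normalizations, filters, thresholds and covariates, and fewer libraries. Coding sequences were the longest open reading frames, aligned with Biopython 1.88. Some genes are not reported here, and the list of other receptors leaves out 1.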

Additional observations from a re-analysis of the deposited data

How the results depend on the processing

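Ccr2 was called lower under all 16 alternative fits, with log2 fold changes from -1.54 to -1.16. No receptor changed sign. The same held relative to the NK cell genes, but nearly all tested genes stood higher in CD36+ NK on that measure, so that sign is not a result about the receptors. Cxcr3 passed both thresholds with replicates 2 and 3 alone (log2 fold change -1.22) and without CD36+ NK replicate 1, and ran from -1.17 to -0.83 over the fits without 1 library. Its adjusted p (edgeR) was 0.0525 with the replicate block. The called genes numbered 880, 560 with the replicate block (221 higher, 339 lower), 433 with replicates 2 and 3 alone (106 higher, 327 lower), and 417 (without CD36- NK replicate 1) to 1160 (without CD36- NK replicate 2) with 1 library left out, of which 451 or fewer without CD36+ NK replicate 2 or 3 or CD36- NK replicate 1 or 3. Higher and lower calls numbered 120 and 298 without CD36+ NK replicate 2, 132 and 319 without CD36+ NK replicate 3, 94 and 323 without CD36- NK replicate 1, 143 and 288 without CD36- NK replicate 3, and 708 and 452 without CD36- NK replicate 2. With no fold threshold they numbered 1552, with a fold change above 4 376, and with an adjusted p below 0.01 330. The called receptors among the 8 numbered 2 with replicates 2 and 3 alone, 3 with no fold threshold, 0 with a fold change above 4, and 1 to 2 with 1 library left out. The other receptors called numbered 2, and 5 with DESeq2 or edgeR's exact test, 1 with replicates 2 and 3 alone or a fold change above 4, 4 with no fold threshold, and 2 to 4 with 1 library left out, the 4 without CD36+ NK replicate 1. The ligands called numbered 3, and 4 (1 higher) with the replicate block or the form of the library name as a covariate, 1 with replicates 2 and 3 alone or a fold change above 4, and 1 (without CD36+ NK replicate 2) to 3 with 1 library left out. The signalling genes called numbered 2 with DESeq2, edgeR's exact test, the replicate block or the form of the library name as a covariate, 4 with no fold threshold, 0 with replicates 2 and 3 alone, a fold change above 4 or an adjusted p below 0.01, and 0 to 2 with 1 library left out, the 2 when CD36+ NK replicate 1 or replicate 2 of CD36- NK was left out, so the call of Grk3 was lost under several settings. The causes were not tested.

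Deviations of same-numbered libraries from their group means correlated at 0.310, 0.0515 and -0.0837 across genes for replicates 1, 2 and 3. Replicate 1 of each fraction correlated best with the other replicate 1, while replicate 2 of each correlated best with replicate 3 of the other, so the numbers, which are uncertain for 2 CD36- NK libraries, were not taken to pair the samples, and no other pairing was fitted.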
